A study of Mus musculus with 12 samples.

Results

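Knockdown of Ehd1 was examined in macrophages exposed to lipopolysaccharide (LPS), the endotoxin of Gram-negative bacterial outer membranes. The comparison took every LPS-treated sample of the series, 3 that had received an siRNA against Ehd1 (siEhd1) and 3 that had received a control siRNA (siControl). These were 6 of the 12 samples, and the other 6 were the same pair of siRNA groups without LPS, called resting here. Of 24421 genes in the deposited tables, 12164 passed a count filter and were tested. All groups shared the same source: bone marrow-derived macrophages of male C57BL/6J mice aged 8 weeks, which are primary macrophages grown from marrow progenitors in culture. The LPS-treated groups carry the label M1 and the resting groups the label M0. The sources used here do not give the LPS dose or duration, the siRNA sequences or the harvest time. The labels do not say whether the 3 replicates of a group were separate animals or cultures, so p-values reflect library-to-library spread alone, which may be technical.

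EHD1 is an ATPase of the Eps15 homology domain family that shapes membrane tubules and returns receptors from recycling endosomes to the cell surface. It works with Rab11 effectors, rabenosyn and syndapins, and the transferrin receptor is its classical cargo. LPS is sensed by Toll-like receptor 4 with CD14 and MD-2, and signals through NF-kB, MAP kinases and interferon regulatory factors to cytokine, chemokine and antigen presentation genes. Macrophages largely stop dividing in this state.

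The LPS-treated libraries held 18572725 to 22545272 counts and 14119 to 14308 detected genes. The main axis of variation among them (33.0% of the variance) separated siEhd1 from siControl. The macrophage label was borne out by its markers: all 10 of the markers looked at, among them Lyz2, Adgre1, Csf1r and Cd68, lay above 5 CPM (read counts relative to the scaled library total), and their summed level was 33100 to 39800 CPM with siControl and 36400 to 38100 CPM with siEhd1. Bulk RNA cannot tell fewer cells of a type from less RNA per cell. Markers of other cells were low. Neutrophil markers summed to 43.3 to 74.1 CPM with siControl and 77.6 to 100 CPM with siEhd1, nearly all of it Mmp8 (73.2 CPM on average), with Retnlg at 0. Lymphocyte markers summed to 4.33 to 5.7 CPM and 6.29 to 7.99 CPM, with Cd3e, Cd3g, Nkg7 and Ncr1 at 0. Dendritic cell markers gave 3.8 to 6.1 and 4.94 to 6.37 CPM, stromal and endothelial markers 62.5 to 95.4 and 74.4 to 84.1 CPM, and erythroid and mast cell markers stayed under 1 CPM in every library. The part of the neutrophil and lymphocyte sums in the results was not tested.

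Ehd1 (ENSMUSG00000024772.9, chromosome 19, 6276725 to 6300096, plus strand, GRCm38) was reduced but far from absent. Its level was 677.7, 631.3 and 550.2 CPM in the siControl libraries and 282.4, 318.6 and 304.5 CPM in the siEhd1 libraries. Every siEhd1 library lay below every siControl library, at 48.7% of the control level on average (log2 fold change -1.04, SE 0.07, edgeR adjusted p = 2.5e-08). The knocked-down level still stood above that of resting siControl cells, which was 53.25 ± 1.18 CPM (SD, n = 3). The paralogs Ehd2 and Ehd3 gave at most 7 and 2 counts in any LPS-treated library and were not tested. The third paralog, Ehd4, read 279.0, 288.2 and 288.4 CPM with siControl and 311.2, 344.7 and 324.1 CPM with siEhd1, a log2 change of 0.20 (SE 0.05, edgeR adjusted p = 0.028). The groups did not overlap, but Ehd4 was no longer called when M1_siCON replicate 1, M1_siCON replicate 2, M1_siEHD1 replicate 2 or M1_siEHD1 replicate 3 was dropped (largest adjusted p 0.14).

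**Figure D1:**
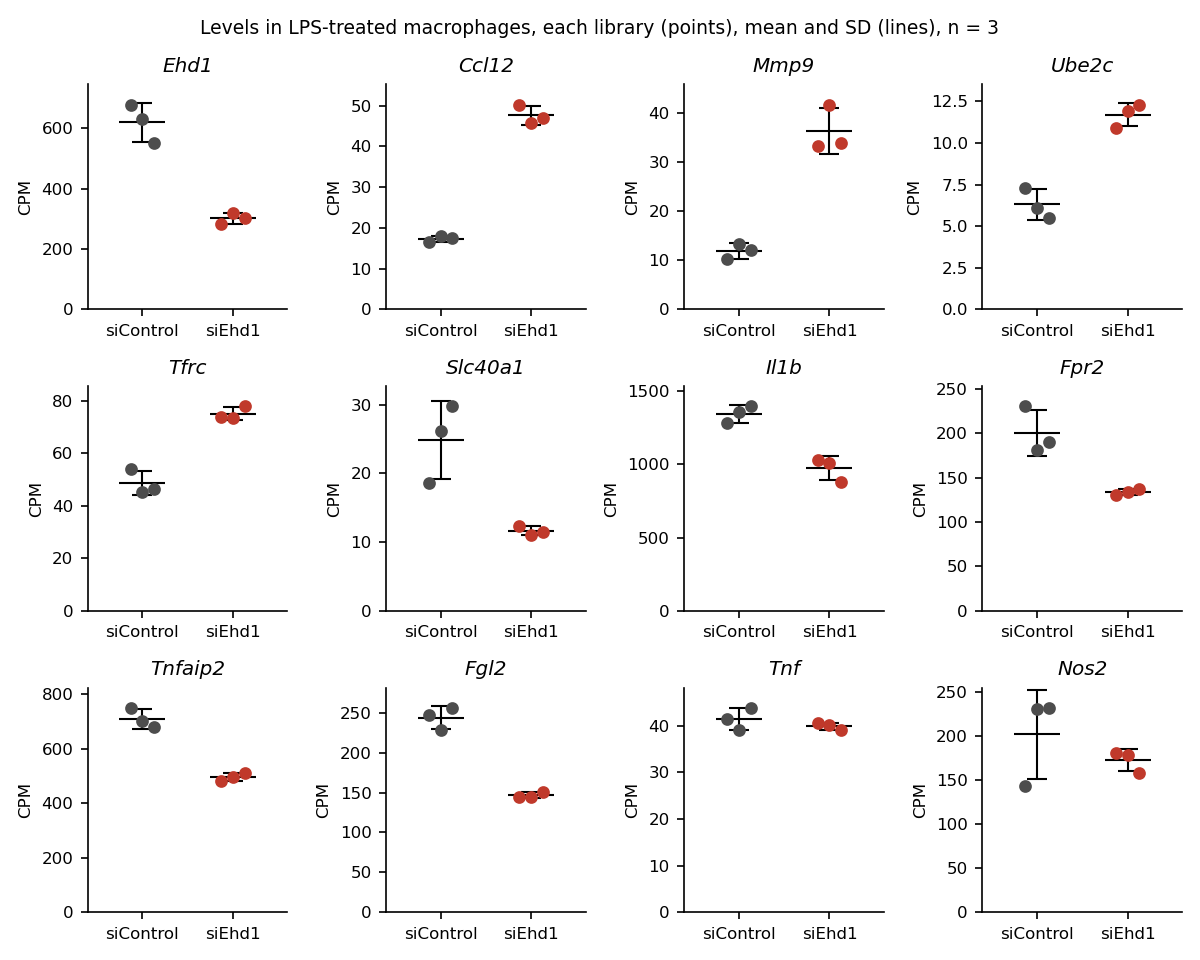
Level in CPM (vertical axis, from 0) of 12 genes in the LPS-treated libraries, with points for the 3 siControl (grey) and 3 siEhd1 (red) libraries and lines for the mean and SD. The groups do not overlap for Ehd1, Ccl12, Mmp9, Ube2c, Tfrc, Slc40a1, Il1b, Fpr2, Tnfaip2 and Fgl2, and they overlap for Tnf and Nos2.

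With an edgeR adjusted p under 0.05 as the call, 8.54% of the tested genes were called: 540 higher (4.44%) and 499 lower (4.1%) with siEhd1. The counts of rises and falls in the gene lists below are to be read beside these shares of 4.44% and 4.1%. The changes were mostly small. The median log2 fold change was 0.38 among the higher and -0.32 among the lower genes, and 31 higher and 6 lower genes changed at least 2-fold. Non-overlap of the groups was more common than a call, in 12.6% of genes upward and 12.6% downward, so separation of 3 libraries from 3 is not read as a call below. The counts leaned on M1_siEHD1 replicate 1: without it 304 genes were higher and 303 lower, whereas leaving out any other LPS-treated library left 374 to 500 higher and 342 to 477 lower.

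**Figure D2:**
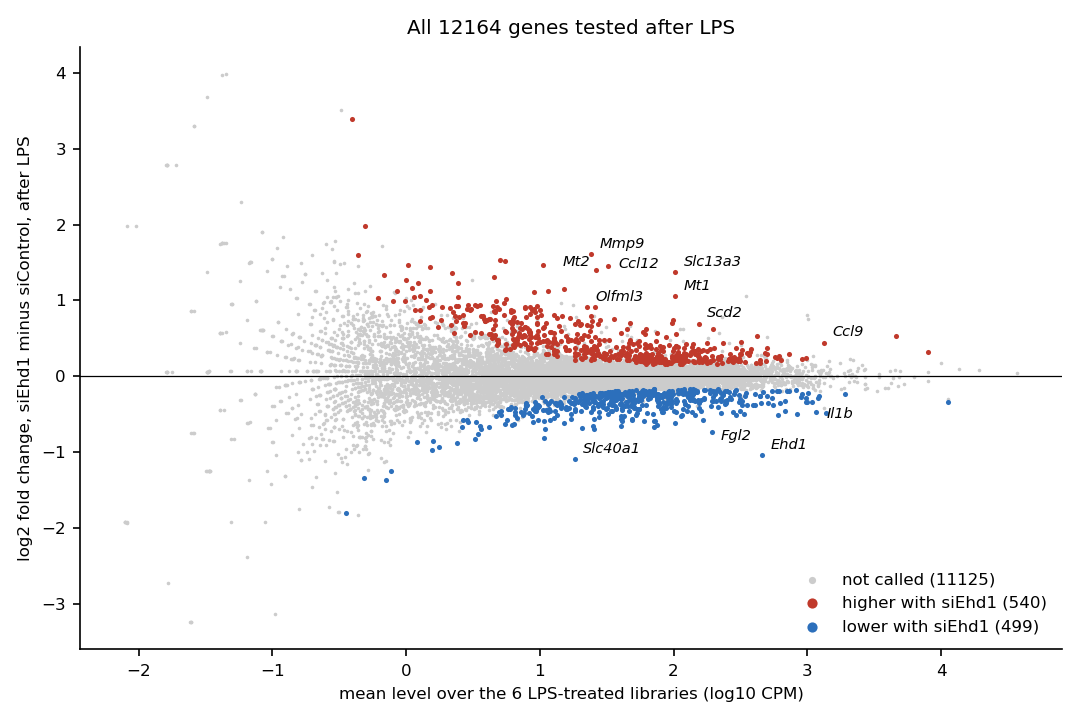
Log2 fold change of siEhd1 against siControl after LPS (vertical axis) by mean level over the 6 libraries (log10 CPM, horizontal axis), 1 point per gene tested, except 8 genes with 0 counts in all 6. Red points are the 540 genes called higher and blue points the 499 called lower; most lie within 1 log2 unit of 0.

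A short sequence was more common among the genes that were lower. The 7 bases GCCTTGT, taken over from an earlier look at these data, occurred in the 3′ UTR of 230 of 473 lower genes whose UTR could be searched (48.6%, 95% Wilson interval 44.2 to 53.1). The share was 9.96% among higher genes (52 of 522) and 12.3% among genes not called (1253 of 10151). By number of copies, the median log2 fold change was 0.005 for 9611 genes with none, -0.06 for 1330 genes with 1, -0.11 for 174 genes with 2 and -0.14 for 31 genes with 3 or more. Among genes with 1 copy, the median was -0.10 where an A followed the word and -0.05 where another base did. Genes with copies in coding sequence and none in the 3′ UTR had a median of -0.04 (928 genes). Copies confined to the 5′ UTR went with a median of -0.03 (111 genes). Of 15616 words of 7 bases present in the 3′ UTRs of at least 100 tested genes, GCCTTGT ranked 1 both by lowest median and by percentage of carriers called lower. Because the word was taken from these same data, the rank and the interval above are descriptions and not separate support.

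The sites of 7 lower genes that are named below are shown because they are what these genes have in common. Each run is 30 bases of the sense strand of a GENCODE M21 transcript (GRCm38), 5′ to 3′, and capitals mark the word. They lie at chr10:7625416-7625445 (plus strand, Lrp11), chr5:21378331-21378360 (plus, Fgl2), chr13:49734120-49734149 (plus, Iars), chr8:88332331-88332360 (minus, Brd7), chr19:59903866-59903895 (minus, Rab11fip2), chr8:33697537-33697566 (plus, Gsr) and chr9:41967926-41967955 (minus, Sorl1), all in 3′ UTRs.
Lrp11: tgagaaaagatGCCTTGTatgtaccagtcc
Fgl2: gtttctttaaaGCCTTGTaaaataaaagtt
Iars: atatatatatgGCCTTGTaaaacagatttg
Brd7: tccaaagattgGCCTTGTattaggaaataa
Rab11fip2: gtgaaaatgttGCCTTGTatttaaaatggt
Gsr: tttaattaacaGCCTTGTgtttgttgtgtt
Sorl1: ccaattcaactGCCTTGTagcctgggaagc

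In all of these but Gsr an A follows the word directly, and the bases around the word differ between the genes. The following A is not shared by most carriers. Of 473 lower genes searched, 230 held the word and 68 held it followed by A. The Ehd1 transcript itself had 0 copies of GCCTTGT in its 3353 bases. It had 1 copy of the reverse complement ACAAGGC, at position 656 of the coding sequence (chr19:6294356-6294385, plus strand), shown here in capitals because Ehd1 is the targeted transcript.
Ehd1: tgtggtgctgaACAAGGCtgatcagatcga

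None of 1738 mature mouse miRNAs in RefSeq had a seed complementary to the word. Since neither siRNA sequence is given in the sources used here, the relation of the word to either siRNA was not tested. Carriers among the called genes named by rule are marked in the text. The fit without any carrier tested 10629 genes and left 385 higher and 259 lower, but it could not call the 230 lower carriers.

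**Figure D3:**
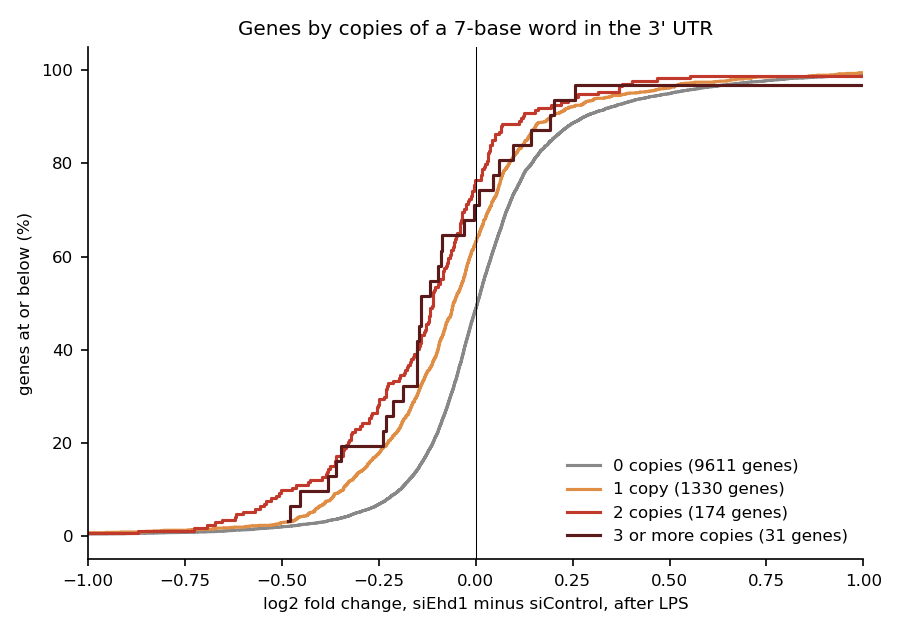
Cumulative percentage of genes (vertical axis) at or below each log2 fold change after LPS (horizontal axis), by the number of copies of the 7-base word in the 3′ UTR. The curves for 1 copy (1330 genes) and 2 copies (174 genes) lie to the left of that for 0 copies (9611 genes); values beyond 1 log2 unit are outside the axis.

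The gelatinase gene Mmp9 read 10.21, 13.43 and 12.08 CPM with siControl and 33.26, 41.73 and 34.01 CPM with siEhd1, a 3.05-fold rise (1.61, SE 0.19, edgeR adjusted p = 0.00045). The monocyte chemokine gene Ccl12 had the smallest p of any gene: 16.57, 18.09 and 17.41 CPM against 50.16, 45.84 and 46.86 CPM (2.74-fold, edgeR adjusted p = 3.7e-10). In both genes the groups stood far apart, and neither carried the word.

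Slc13a3, a sodium-dependent dicarboxylate transporter gene, rose from 62.79, 57.99 and 51.89 to 136.0, 160.5 and 149.9 CPM (2.59-fold, edgeR adjusted p = 1.7e-06). Tmem119, best known as a microglial surface marker, rose from between 1.924 and 3.139 to between 5.908 and 8.955 CPM. The endothelial lipase gene Lipg went from 2.478 to 3.058 CPM up to 7.842 to 8.776 CPM, and the phosphatase-like gene Pald1 from 5.137 to 6.56 CPM up to 11.52 to 13.59 CPM. Olfml3, which encodes a secreted olfactomedin-domain protein, was tightly grouped at 15.34, 15.17 and 16.17 CPM and then at 28.55, 31.95 and 27.48 CPM (0.92, SE 0.07). Olfml3 is a carrier. Abcb4, a phospholipid transporter gene, rose by 0.73 (SE 0.07). Myrf, a membrane-bound transcription factor gene and 1 of the 52 higher genes with the word, rose by 1.31 (SE 0.18). Ptprn and the cyclin gene Ccnd1 had large values too (log2 1.47, SE 0.37, and 1.15, SE 0.27), but for each the call depended on 5 of the 6 libraries left out in turn, with adjusted p-values reaching 0.19 and 0.15. The exceptions were M1_siCON replicate 3 for Ptprn and M1_siEHD1 replicate 3 for Ccnd1. Dcn, a fibroblast proteoglycan gene, was called at 0.96 (SE 0.23) and lost its call without M1_siEHD1 replicate 1 (adjusted p up to 0.076). It was the only called member of the stromal and endothelial markers (1 of 9 tested).

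Slc40a1 had the deepest fall among the named genes of at least 5 CPM, followed by Ehd1. It encodes ferroportin, the iron exporter, and read 18.64, 26.17 and 29.73 CPM with siControl and 12.33, 11.04 and 11.53 CPM with siEhd1, a log2 change of -1.10 (SE 0.18, edgeR adjusted p = 0.0042). Its siControl libraries spread widely but stayed above all siEhd1 libraries. Fgl2, a prothrombinase and immunoregulatory protein gene, read 247.4, 228.0 and 255.8 CPM against 144.9, 144.3 and 150.7 CPM (-0.73, SE 0.08). The chromatin reader gene Brd7 fell from 92.73, 85.24 and 83.37 to 57.83, 59.49 and 55.58 CPM (-0.60, SE 0.06), and Leprot, an endosomal regulator of receptor surface levels, from 131.6, 123.7 and 120.3 to 82.54, 80.94 and 80.88 CPM (-0.62, SE 0.05). In these 3 genes the siEhd1 libraries nearly coincided.

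Of the 15 largest decreases among genes of at least 5 CPM whose libraries did not overlap, 10 carried the word: Lrp11, Fgl2, Gpr85, Emc2, Dtwd1, Iars, Tor1b, Rab11fip2, Trp53i13 and Leprot. Ehd1, Slc40a1, Ly6i, Cp and Leng9 did not. The fall was -0.81 (SE 0.12) for Lrp11, -0.69 (SE 0.07) for the orphan receptor gene Gpr85 with its 2 copies, -0.68 (SE 0.08) for Emc2, a subunit of the membrane protein insertase, and -0.65 (SE 0.06) for the torsin gene Tor1b with 2 copies. Ly6i, a surface antigen gene of a family of similar copies whose counts are therefore uncertain, fell by 0.69 on the log2 scale (SE 0.11).

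Of 20 iron genes tested 2 rose and 4 fell (median -0.07, against -0.004 over all genes). The transferrin receptor gene Tfrc, whose product brings iron into cells and recycles through EHD1-positive endosomes, read 54.01, 45.4 and 46.51 CPM with siControl and 73.65, 73.43 and 77.78 CPM with siEhd1. All siEhd1 libraries lay above all siControl libraries (0.62, SE 0.07, edgeR adjusted p = 9.4e-06). Ceruloplasmin (Cp), the copper ferroxidase that works with ferroportin, fell from 94.5, 86.83 and 92.93 to 57.39, 58.77 and 59.25 CPM (-0.65, SE 0.06), although 108 bases of its exons are shared with Hps3 on the other strand. Lipocalin 2 (Lcn2), which binds bacterial siderophores, fell from 359.2, 343.3 and 329.7 to 230.6, 261.6 and 229.9 CPM (-0.52, SE 0.06). None of these 4 genes carried the word.

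The metallothionein genes, whose small proteins bind zinc and copper, were both higher. Mt2 read 16.28, 15.71 and 11.18 CPM against 36.85, 39.84 and 37.23 CPM (2.64-fold, edgeR adjusted p = 2.3e-06), and Mt1 76.01, 73.94 and 50.94 CPM against 130.4, 155.2 and 131.7 CPM (2.08-fold, edgeR adjusted p = 0.0013). In both, replicate 3 of siControl was the lowest library. In their list with the zinc transporters 3 of 17 rose and 2 fell (median -0.03). The importer gene Slc39a8 (ZIP8) rose by 0.60 (SE 0.10), and Slc39a10 (ZIP10) fell by 0.38 on the log2 scale (SE 0.09).

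Chemokine genes were called in 1 direction. Of 12 CC chemokine genes 4 rose and none fell (median 0.48), and of 11 CXC chemokine genes 3 rose and none fell (median 0.37). At an unadjusted p under 0.05, 9 and 5 were higher and 1 and 0 lower; DESeq2 called 5 and 3 higher and limma-voom 7 and 5. Neither list had a carrier among its called genes. Ccl9, the most abundant of the called members, read 1013, 1101 and 1272 CPM with siControl and 1590, 1496 and 1514 CPM with siEhd1 (1.36-fold, edgeR adjusted p = 0.0060). Ccl3 went from 38.67, 39.5 and 39.52 to 51.78, 57.8 and 49.73 CPM (0.44, SE 0.08), and Ccl4 from 15.19, 18.73 and 18.22 to 27.56, 25.08 and 23.63 CPM (0.55, SE 0.09). The groups were apart in all 3 genes.

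Among CXC chemokines, Cxcl10, an interferon-induced ligand of CXCR3, rose from 65.7, 71.02 and 86.32 to 112.3, 124.9 and 125.7 CPM (1.63-fold, edgeR adjusted p = 0.0063). Platelet factor 4 (Pf4) read 441.0, 485.4 and 379.2 CPM against 585.2, 569.0 and 532.8 CPM, and Cxcl16, a scavenger receptor and chemokine gene, 554.8, 562.1 and 570.2 CPM against 648.4, 699.5 and 677.5 CPM. Their folds were 1.29 and 1.20. Ccl2, the main monocyte attractant, was not called by edgeR (129.9, 176.5 and 201.7 CPM against 304.1, 310.2 and 259.0 CPM, 0.78, SE 0.28, adjusted p = 0.14), though the groups did not overlap; limma-voom called it (adjusted p = 0.012). The neutrophil attractant Cxcl1 stood at 7.497 to 9.417 CPM with siControl and 6.596 to 9.581 CPM with siEhd1.

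Of 12 tested genes of the IL-6, IL-10 and IL-12 families and growth factors 2 rose: Csf1, the macrophage growth factor gene (9.569, 9.962 and 10.18 CPM against 13.46, 13.02 and 14.11 CPM, 0.45, SE 0.10), and Pdgfb (0.48, SE 0.11), whose call was lost without M1_siEHD1 replicate 1 or 2 (adjusted p up to 0.097). Il6 stood between 0.516 and 1.141 CPM in all 6 libraries, and Il10 at 0.296 to 0.694 CPM with siControl and 0.746 to 0.835 CPM with siEhd1, a log2 change of 0.81 (SE 0.36, edgeR adjusted p = 0.18). Il12b gave 4 to 11 counts per library and was not tested. Ifnb1 was not tested either, at 1, 0 and 1 counts with siControl and 10, 5 and 6 counts with siEhd1; it is named here after its counts were seen.

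In the TNF superfamily 2 of 27 genes rose and 1 fell (median -0.01). These shares of 7.41% and 3.7% were near the 4.44% and 4.1% over all genes. Tnf itself was level, at 41.38, 38.95 and 43.76 CPM against 40.48, 40.08 and 39.06 CPM (-0.05, SE 0.07, edgeR adjusted p = 0.75). The death ligand gene Tnfsf10 (TRAIL) rose from 4.834, 4.361 and 4.851 to 7.959, 7.987 and 7.858 CPM (0.76, SE 0.13, edgeR adjusted p = 0.00057), and the decoy receptor gene Tnfrsf23 fell from 30.14, 38.66 and 38.81 to 26.68, 28.46 and 24.55 CPM (-0.43, SE 0.08). Tnfrsf9 (4-1BB) was called at 0.57 (SE 0.17) and lost its call without M1_siCON replicate 2 or any siEhd1 library (adjusted p up to 0.19).

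Calls in the interleukin-1 arm were lower. Of 18 genes of the IL-1 family and inflammasome 3 fell and none rose (median -0.14), and 6 were lower and 2 higher at an unadjusted p under 0.05; DESeq2 and limma-voom each called 4 lower and none higher. The count was 7 without M1_siCON replicate 1 and 2 without M1_siCON replicate 2, M1_siEHD1 replicate 1 or M1_siEHD1 replicate 3. Il1b (ENSMUSG00000027398.13, chromosome 2, 129364570 to 129371139, minus strand, GRCm38) read 1277, 1356 and 1393 CPM with siControl and 1029, 1006 and 879 CPM with siEhd1. All siEhd1 libraries were lower, at 72.4% of control (-0.47, SE 0.10, edgeR adjusted p = 0.011), but dropping M1_siCON replicate 2 or M1_siEHD1 replicate 3, or using DESeq2, ended the call (largest adjusted p 0.19). The inflammasome sensor genes Nlrp3 (204.5, 180.7 and 172.1 CPM against 146.5, 153.5 and 153.9 CPM, -0.30, SE 0.07) and Mefv, which encodes pyrin (153.4, 139.2 and 149.1 CPM against 111.6, 113.0 and 130.1 CPM, -0.32, SE 0.07), fell too. The Nlrp3 call was lost without M1_siEHD1 replicate 1 (adjusted p = 0.068). No called gene of this list carried the word.

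Calls among NF-kB subunit and feedback genes were all lower. Of 30 tested 5 fell and none rose (median -0.13), with 14 lower and none higher at an unadjusted p under 0.05; DESeq2 and limma-voom called 5 lower each. Without M1_siEHD1 replicate 1 the count was 2 and without M1_siEHD1 replicate 3 it was 3. Tnfaip2, an NF-kB target of exocytosis and nanotube formation, read 748.9, 699.8 and 678.2 CPM with siControl and 480.1, 496.8 and 509.8 CPM with siEhd1, which is 69.9% of control (-0.52, SE 0.06, edgeR adjusted p = 5.9e-06). The inhibitor gene Nfkbie read 140.5, 136.7 and 126.0 CPM against 100.8, 110.0 and 110.1 CPM (-0.33, SE 0.05). For the subunit gene Relb (-0.22, SE 0.06) and the ubiquitin ligase gene Birc3 (-0.19, SE 0.05) the groups were apart, but dropping M1_siCON replicate 1 or M1_siEHD1 replicate 1 ended each call (largest adjusted p 0.089 and 0.11).

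Upstream, 2 of 32 Toll-like receptor genes fell and none rose (median -0.06). The share that fell, 6.25%, was near the 4.1% over all genes. At an unadjusted p under 0.05, 5 were lower and none higher, and DESeq2 and limma-voom called 2 lower each. Dropping M1_siCON replicate 2, M1_siEHD1 replicate 1 or M1_siEHD1 replicate 3 left 1. Irak2, a kinase that sustains the signal, went from 98.15, 100.8 and 106.5 to 83.47, 82.24 and 77.61 CPM (-0.33, SE 0.05). Cd14, the LPS co-receptor, went from 1298, 1402 and 1319 to 1115, 1218 and 1030 CPM (-0.26, SE 0.07), which was no longer called when M1_siCON replicate 2, M1_siEHD1 replicate 1 or M1_siEHD1 replicate 3 was dropped (largest adjusted p 0.13). The receptor Tlr4, named after its values were seen, was not called (-0.08, edgeR adjusted p = 0.39). Of 33 MAP kinase, phosphatase and immediate early genes 1 rose and 3 fell, among them the phosphatase gene Dusp16 (-0.35, SE 0.07) and Jund (-0.24, SE 0.07). Mapk11 rose at 0.60 (SE 0.16). Jund overlapped between groups, and its call was lost without 4 single libraries; Mapk11 depended on M1_siCON replicate 3 and M1_siEHD1 replicate 3.

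Interferon-stimulated genes gave few calls after LPS. Of 46 tested 1 fell and none rose (median 0.01), with 5 higher and 2 lower at an unadjusted p under 0.05; DESeq2 called 3 higher and limma-voom 2. The 1 call, Oasl2 (771.2, 790.6 and 774.9 CPM against 670.8, 699.4 and 676.5 CPM, -0.19, SE 0.06), is a carrier, and it was lost without any of 5 single libraries. Of 15 guanylate-binding protein and immunity-related GTPase genes 3 fell (median -0.09): Gbp8 (-0.86, SE 0.24), Gbp6 (-0.23, SE 0.07) and Gbp10 (-0.25, SE 0.08). This count was 0 when M1_siCON replicate 2, M1_siCON replicate 3, M1_siEHD1 replicate 1 or M1_siEHD1 replicate 2 was dropped. Gbp6, Gbp8 and Gbp10 share exon bases with neighbouring genes of the cluster, so their counts are uncertain.

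Of 18 genes of class I molecules and their peptide loading 4 fell and none rose (median -0.12), with 8 lower and none higher at an unadjusted p under 0.05 and 4 lower with DESeq2 and limma-voom each. The peptide transporter gene Tap2 read 184.4, 185.8 and 164.7 CPM against 141.0, 146.2 and 144.9 CPM (-0.31, SE 0.06, edgeR adjusted p = 0.0018). The class I gene H2-Q4 read 449.0, 461.1 and 465.3 CPM against 350.7, 341.1 and 367.6 CPM (-0.38, SE 0.07), with counts uncertain among near-identical class I copies. Tap1 (-0.23, SE 0.06) and Tapbpl (-0.22, SE 0.06) were called as well, but both were lost without M1_siEHD1 replicate 1, which left 2 lower in the list. Of 16 class II and costimulation genes 1 rose and 2 fell (median -0.01). The checkpoint ligand gene Cd274 (PD-L1), with 2 copies of the word, fell from 544.4, 663.8 and 666.3 to 506.3, 461.4 and 469.2 CPM (-0.38, SE 0.07). Icosl (-0.52, SE 0.14) and H2-DMb1 (0.23, SE 0.07) were called but lost their calls without 4 and 5 single libraries.

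**Figure D4:**
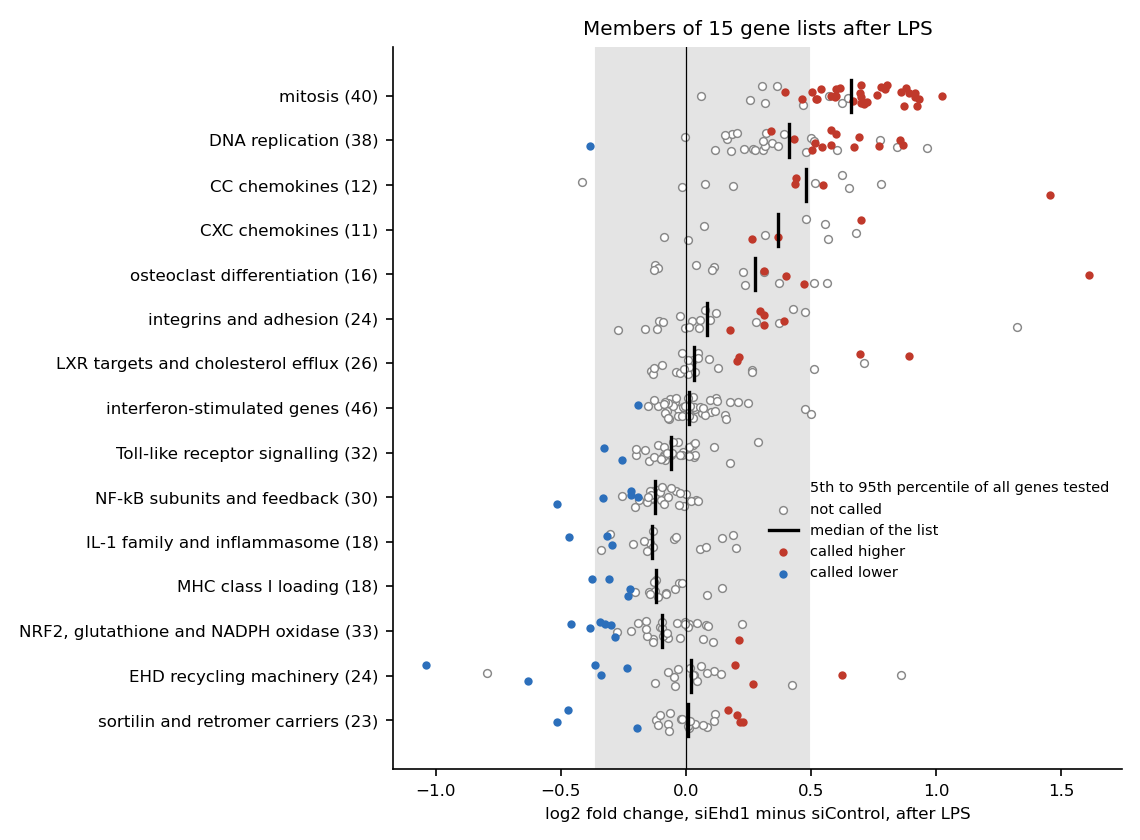
Log2 fold change of siEhd1 against siControl after LPS (horizontal axis) for the tested members of 15 gene lists (rows, with the number tested), each point 1 gene, red or blue where called and open where not; black bars are list medians and the grey band the 5th to 95th percentile of all genes tested (-0.36 to 0.49). The medians of mitosis (0.66), CC chemokines (0.48) and DNA replication (0.41) lie highest, and that of interferon-stimulated genes (0.01) lies near 0.

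Of 40 mitosis genes 31 rose and none fell (median 0.66), and all 40 fold changes were positive. At an unadjusted p under 0.05, 38 were higher and none lower; DESeq2 called 33 higher and limma-voom 28. The count was 20 without M1_siEHD1 replicate 1 and up to 26 without another library. Most of these genes stood below 20 CPM. Ube2c, the ubiquitin-conjugating enzyme of the anaphase-promoting complex, read 7.3, 6.096 and 5.517 CPM with siControl and 10.91, 11.91 and 12.28 CPM with siEhd1 (1.85-fold, edgeR adjusted p = 9.5e-05), though 144 bases of its exons are shared with Tnnc2 on the other strand. Bub1b, a spindle checkpoint kinase gene, read 9.174, 10.16 and 9.512 CPM against 14.44, 13.89 and 14.86 CPM (0.58, SE 0.09). The most abundant of the named members, Incenp of the chromosomal passenger complex, read 96.62, 89.46 and 83.56 CPM against 119.9, 119.9 and 114.5 CPM (0.40, SE 0.06).

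The groups did not overlap in any of these 3 genes. The cytokinesis kinesin gene Kif23 (0.70, SE 0.12), the spindle genes Hmmr (1.02, SE 0.20) and Kif18b (0.99, SE 0.16), Prr11 (0.85, SE 0.15) and the centrosome kinase gene Nek2 (0.78, SE 0.16) kept their calls under every alternative run. The proliferation marker Mki67, named after its values were seen, was not called (0.32, edgeR adjusted p = 0.19).

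Of 38 DNA replication genes tested 13 rose and 1, the carrier Rfc3, fell (median 0.41). At an unadjusted p under 0.05, 29 were higher and 1 lower. Without M1_siCON replicate 1 or M1_siEHD1 replicate 1 the higher count was 7, and with DESeq2 it was 20. The replicative helicase genes Mcm2 (11.34, 13.13 and 12.75 CPM against 20.34, 22.41 and 20.71 CPM) and Mcm6 (39.21, 46.19 and 42.14 CPM against 57.83, 57.36 and 56.73 CPM) were 1.71- and 1.35-fold higher. The ligase gene Lig1 rose by 0.60 (SE 0.10), and the chromatin assembly gene Chaf1a, a carrier whose exons share 2542 bases with Ubxn6 on the other strand, by 0.67 (SE 0.10). Of 26 G1 genes 5 rose and 2 fell (median 0.13); the higher count was 2 without M1_siEHD1 replicate 1 and 3 without M1_siCON replicate 1 or 2 or M1_siEHD1 replicate 2. The CDK inhibitor gene Cdkn2c (9.569, 10.26 and 9.417 CPM against 15.28, 13.84 and 14.86 CPM) and E2f2 (6.461, 7.434 and 6.801 CPM against 9.875, 9.827 and 9.35 CPM) rose by 0.59 (SE 0.10) and 0.49 (SE 0.09) on the log2 scale. Ccne2 rose by 1.23 (SE 0.28), no longer called when M1_siCON replicate 2 or M1_siEHD1 replicate 1 was dropped. Ccnd2, with 2 copies of the word, fell by 0.43 on the log2 scale (SE 0.11), a call lost without M1_siEHD1 replicate 1 (adjusted p = 0.090).

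Promoters of the mitosis genes are printed because the members moved together. Mitotic promoters are known for the cell cycle homology region (TTTGAA or TTCGAA) downstream of CCAAT boxes, the elements bound by the MuvB complexes and NF-Y. In RefSeq promoters of 300 bases (GRCm38.p6, 250 before to 50 after the start site, both strands searched), both motifs were found in 22 of 33 mitosis genes with a promoter in the table (66.7%). The share was 6.86% over 9316 tested genes (639), 14.5% over higher genes (59 of 407) and 5.45% over lower genes (21 of 385). Each motif alone was in 78.8% and 72.7% of the mitosis promoters, against 16.4% and 43.1% over tested genes. In the promoters printed below, TTTGAA or TTCAAA matches share no letters with CCAAT or ATTGG matches, and a match is not evidence of binding.

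Below are the 250 bases before the start site of the 3 higher mitosis genes with the largest fold changes among those with both motifs there, chosen after their values were seen: Ube2c (chr2:164769679-164769928, plus strand), Ccnb2, a mitotic cyclin gene (chr9:70421555-70421804, minus strand, 0.88), and Prc1, a spindle midzone gene (chr7:80294226-80294475, plus strand, 0.76). Capitals mark TTTGAA and CCAAT or their reverse complements TTCAAA and ATTGG.
Ube2c: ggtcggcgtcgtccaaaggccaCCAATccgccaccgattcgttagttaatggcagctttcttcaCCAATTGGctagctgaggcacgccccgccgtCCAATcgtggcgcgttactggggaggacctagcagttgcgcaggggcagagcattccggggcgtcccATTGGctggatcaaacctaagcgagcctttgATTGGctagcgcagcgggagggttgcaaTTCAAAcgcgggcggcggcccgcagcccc
Ccnb2: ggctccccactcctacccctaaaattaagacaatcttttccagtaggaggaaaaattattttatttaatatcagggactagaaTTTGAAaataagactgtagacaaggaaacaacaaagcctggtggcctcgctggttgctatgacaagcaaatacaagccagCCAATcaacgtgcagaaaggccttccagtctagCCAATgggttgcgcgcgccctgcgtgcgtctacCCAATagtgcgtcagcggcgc
Prc1: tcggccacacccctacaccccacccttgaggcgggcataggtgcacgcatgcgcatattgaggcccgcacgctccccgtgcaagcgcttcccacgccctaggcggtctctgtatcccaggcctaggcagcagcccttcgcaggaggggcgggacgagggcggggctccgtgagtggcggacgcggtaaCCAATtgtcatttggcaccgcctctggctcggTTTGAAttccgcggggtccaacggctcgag

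In Ube2c and Prc1 the TTTGAA or TTCGAA motif shown lies 29 and 30 bases before the start site. In Ccnb2 the one shown lies 167 bases before it and upstream of its CCAAT motifs, and a further TTTGAA lies just after the start site, beyond the bases printed. Ube2c holds 6 CCAAT motifs, Ccnb2 3 and Prc1 1. In Ube2c, CCAATTGG is counted on each strand, and these matches share letters.

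Within the recycling machinery that EHD1 belongs to, 3 of 24 genes rose and 5 fell, Ehd1 included (median 0.02). Ehd1 apart, 4 of the lower genes carried the word. Named by the rule, these were the Rab11 effector genes Rab11fip2 (7.448, 8.078 and 7.943 CPM against 5.355, 4.066 and 5.793 CPM, -0.63, SE 0.14) and Rab11fip1 (77.19, 92.78 and 88.51 CPM against 69.18, 71.93 and 62.92 CPM, -0.34, SE 0.07, with 2 copies) and the rabenosyn gene Rbsn (44.98, 45.7 and 43.18 CPM against 34.29, 34.85 and 34.82 CPM, -0.37, SE 0.06). The fourth was the early endosome GTPase gene Rab5a (-0.24, SE 0.06), named after its values were seen. With carriers left out of the fit, these 4 genes were not tested, which left Ehd1 as the 1 lower gene of the list. Tfrc and Ehd4 were among the 3 higher genes.

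Of 23 sortilin and retromer carriers 4 rose and 3 fell (median 0.01), and the 3 lower genes all carried the word. They were the sorting adaptor gene Gga2 (61.85, 63.54 and 59.26 CPM against 39.99, 44.83 and 44.57 CPM, -0.51, SE 0.06), the sorting receptor gene Sorl1 (31.67, 27.26 and 25.49 CPM against 20.24, 20.48 and 20.08 CPM, -0.47, SE 0.08) and the mannose 6-phosphate receptor gene M6pr (-0.20, SE 0.05). The M6pr call was lost without M1_siEHD1 replicate 1 (adjusted p = 0.059). Snx2, a retromer-associated sorting nexin gene, rose by 0.23 (SE 0.05), a call lost without M1_siCON replicate 2 (adjusted p = 0.055), and the higher count was 1 without M1_siCON replicate 2 or M1_siEHD1 replicate 3. Sortilin itself (Sort1, chromosome 3, 108284082 to 108361511, plus strand, GRCm38) was not called: 14.8, 16.7 and 14.74 CPM against 12.48, 14.91 and 15.26 CPM (-0.12, SE 0.09, edgeR adjusted p = 0.50).

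Of 26 LXR target and cholesterol efflux genes 4 rose and none fell (median 0.03; 9 higher and 1 lower at an unadjusted p under 0.05, 5 higher with DESeq2 and 4 with limma-voom). Without any of 4 single libraries (M1_siCON replicate 2 and the 3 siEhd1 replicates) the count was 2. The desaturase gene Scd2 read 122.4, 117.1 and 115.9 CPM with siControl and 191.7, 189.5 and 194.3 CPM with siEhd1, a clear separation (0.69, SE 0.08, edgeR adjusted p = 6.2e-05). Scd1 rose by 0.89 (SE 0.21) from about 2 CPM, no longer called when M1_siCON replicate 2 or M1_siEHD1 replicate 3 was dropped. The cholesterol ester hydrolase gene Nceh1 rose by 0.20 (SE 0.05). The Nceh1 call was lost without M1_siCON replicate 1, M1_siEHD1 replicate 1 or M1_siEHD1 replicate 2 (largest adjusted p over the alternatives 0.091). The cholesterol exporter Abca1 was not called (1414, 1627 and 1578 CPM against 1397, 1405 and 1419 CPM, edgeR adjusted p = 0.25).

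Of 24 lipid uptake and PPAR-gamma genes 2 rose and 2 fell (median 0.08). Pparg, low after LPS, read 2.121, 4.014 and 3.377 CPM against 4.913, 5.76 and 5.449 CPM (0.76, SE 0.16), and the acyl-CoA synthetase gene Acsl1 1350, 1322 and 1323 CPM against 1037, 1135 and 1108 CPM (-0.28, SE 0.05). The scavenger receptor Cd36 was not called (645, 1027 and 1108 CPM against 1117, 1156 and 961 CPM), and the low siControl library was replicate 1. In sterol synthesis 1 of 29 genes, Acaca, rose (3.45%, against 4.44% over all genes) and none fell (median 0.05). At an unadjusted p under 0.05, 5 were higher and 1 lower. The Acaca call was lost without 5 single libraries.

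Of 33 NRF2, glutathione and NADPH oxidase genes 6 fell and 1 rose (median -0.09). The glutathione reductase gene Gsr, a carrier, read 193.8, 181.7 and 182.3 CPM against 138.5, 133.6 and 133.8 CPM (-0.46, SE 0.05, edgeR adjusted p = 9.4e-06). The factor gene Nfe2l2 (NRF2) read 362.9, 342.5 and 343.8 CPM against 272.5, 296.2 and 283.0 CPM (-0.30, SE 0.05), its partner gene Sqstm1 (p62) 1091, 1134 and 1049 CPM against 833.3, 895.9 and 853.7 CPM (-0.34, SE 0.06), and the pentose phosphate gene G6pdx fell by 0.38 on the log2 scale (SE 0.06). These 3 do not carry the word. The latter 2 share 580 and 278 exon bases with a gene on the other strand.

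Of 25 glycolysis and HIF target genes 3 fell and none rose (median -0.05; 4 lower and none higher at an unadjusted p under 0.05, and 3 lower with DESeq2 and limma-voom each). Pfkfb3, which makes the activator of phosphofructokinase, read 1119, 1115 and 992.2 CPM against 885.6, 873.0 and 898.9 CPM (-0.28, SE 0.06). Pgam1 (-0.28, SE 0.07) and Hif1a (-0.19, SE 0.05) were lower as well. Pfkfb3 and Pgam1 are carriers, and without M1_siEHD1 replicate 1 only 1 call was left. Among 17 nitric oxide, arginine and itaconate genes 1 rose and 1 fell (median 0.03). Irg1, the itaconate-producing enzyme gene, read 1983, 2083 and 2181 CPM against 1707, 1811 and 1771 CPM (-0.24, SE 0.07), and Idh1 rose by 0.23 (SE 0.06). The Irg1 call was lost without 5 single libraries and that of Idh1 without 3. Nos2 was not called (143.0, 230.1 and 231.5 CPM against 180.8, 178.5 and 157.7 CPM, -0.23, SE 0.16, edgeR adjusted p = 0.49), but without M1_siCON replicate 1 it was (-0.42, adjusted p = 0.00013). Arg1 (46.86, 84.3 and 81.14 CPM against 96.2, 90.72 and 76.29 CPM) was not called, and its lowest library was the same one.

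Of 22 aminoacyl-tRNA synthetase genes 2 fell (Iars, a carrier, by -0.67, SE 0.07, and Cars by -0.30, SE 0.07) and none rose, with a median of -0.04. Of 22 ATF4 target and amino acid genes 3 fell and none rose (median -0.16). These included Sesn2, a nutrient sensor gene (35.07, 34.1 and 31.63 CPM against 22.9, 28.17 and 27.53 CPM, -0.36, SE 0.08), and Atf5 (-0.30, SE 0.07), whereas the glutamine transporter gene Slc1a5, a carrier, lost its call whichever library was left out (adjusted p up to 0.17). Of 25 unfolded protein response genes 3 fell and none rose (median 0.08). The stress sensor gene Ern1 (IRE1), a carrier, read 56.28, 59.42 and 57.02 CPM against 44.22, 39.89 and 45.66 CPM (-0.41, SE 0.06), the chaperone gene Dnajb9 fell by 0.33 on the log2 scale (SE 0.07), and Sec61a1, a carrier, by 0.19 (SE 0.05). The last was no longer called when M1_siCON replicate 1, M1_siCON replicate 2 or M1_siEHD1 replicate 1 was dropped. For these 3 lists, unadjusted p-values under 0.05 numbered 0, 1 and 4 upward and 4, 5 and 3 downward, DESeq2 called 2, 2 and 3 lower, and without M1_siCON replicate 1 the unfolded protein list had 7 higher.

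Of 16 osteoclast genes 4 rose and none fell (median 0.28; 6 higher and 2 lower at an unadjusted p under 0.05, 5 higher with DESeq2 and with limma-voom). With Mmp9 these were the tartrate-resistant phosphatase gene Acp5 (43.21, 52.14 and 46.32 CPM against 62.54, 65.54 and 58.79 CPM, 0.40, SE 0.07), the integrin gene Itgav (0.31, SE 0.06) and the collagenolytic cathepsin gene Ctsk (16.77, 22.15 and 21.64 CPM against 29.28, 26.91 and 27.76 CPM, 0.47, SE 0.10). Of 17 metalloproteinases and inhibitors 2 rose and 1, the carrier Adam17, fell (median 0.12). Adam17 (-0.19, SE 0.06, edgeR adjusted p = 0.038) shares 311 exon bases with Iah1 on the other strand. It fell short of the threshold when any siEhd1 library, or siControl replicate 1 or 2, was removed (adjusted p over the alternatives up to 0.15). The inhibitor gene Timp2 read 255.2, 285.3 and 268.5 CPM against 369.0, 384.2 and 353.9 CPM (0.45, SE 0.06, edgeR adjusted p = 3.4e-05). Mmp12, named after its values were seen, averaged 225.4 and 470.8 CPM and was not called (1.06, edgeR adjusted p = 0.062).

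Of 25 matrix genes 2 rose and 1 fell (median -0.06). The basement membrane collagen gene Col18a1 read 142.0, 170.8 and 156.1 CPM against 234.3, 255.1 and 232.2 CPM (0.62, SE 0.06), the collagen cross-linking enzyme gene Lox rose from between 5.623 and 8.227 to between 14.63 and 16.65 CPM (1.12, SE 0.13), and the lysyl hydroxylase gene Plod3, a carrier, fell by 0.33 on the log2 scale (SE 0.05). Of 24 integrin and adhesion genes 5 rose and none fell (median 0.09; 7 higher and 2 lower at an unadjusted p under 0.05, 6 higher with DESeq2 and with limma-voom, which also called 2 and 1 lower). The tetraspanin genes Cd9 (81.53, 94.17 and 96.83 CPM against 122.6, 124.2 and 111.2 CPM) and Cd63 (701.9, 676.2 and 591.3 CPM against 801.8, 802.1 and 815.6 CPM) and the integrin gene Itga6, a carrier (0.31, SE 0.06), were among them.

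Of 28 macrophage identity genes 5 rose and 3 fell (median 0.03), and the higher count was 2 without M1_siEHD1 replicate 1 or 2. The lineage factor genes Cebpa (41.14, 52.09 and 50.6 CPM against 31.1, 36.84 and 31.66 CPM, -0.53, SE 0.08) and Klf2 (12.92, 14.82 and 15.27 CPM against 9.384, 10.21 and 9.235 CPM, -0.58, SE 0.11) were lower, and both are carriers. The lipid-sensing receptor gene Trem2 (179.6, 212.7 and 209.9 CPM against 263.8, 281.2 and 269.0 CPM, 0.43, SE 0.06) and the fractalkine receptor gene Cx3cr1 (14.9, 15.96 and 15.5 CPM against 21.91, 22.17 and 19.79 CPM, 0.47, SE 0.09) were higher.

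Of 19 Fc receptor and C-type lectin genes 3 rose and 4 fell (median -0.01). The activating receptor gene Fcgr4 read 161.8, 165.4 and 162.7 CPM against 204.0, 213.4 and 213.0 CPM (0.36, SE 0.05). The lectin genes Clec4e (Mincle; 853.0, 718.1 and 784.7 CPM against 580.3, 538.3 and 590.4 CPM, -0.46, SE 0.08) and Clec4n (Dectin-2; -0.37, SE 0.07) fell. Without M1_siCON replicate 3 or M1_siEHD1 replicate 3 the higher count was 1, and without M1_siEHD1 replicate 1 the lower count was 2. Of 26 complement and efferocytosis genes 5 rose and 2 fell (median 0.002). The bridging protein gene Mfge8 read 132.7, 161.1 and 147.6 CPM against 179.7, 193.7 and 187.4 CPM (0.35, SE 0.06). Pros1 (0.25, SE 0.06), Anxa1 (0.29, SE 0.08) and C5ar1 (0.25, SE 0.07) were called too, and leaving out any 1 library left 2 or 3 higher. None was lower when M1_siCON replicate 2, M1_siEHD1 replicate 1 or M1_siEHD1 replicate 3 was dropped.

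Of 31 prostaglandin, purine and lipid mediator genes, receptors and enzymes together, 7 were lower and 3 higher (median -0.09). Dropping M1_siCON replicate 1, M1_siCON replicate 3, M1_siEHD1 replicate 2 or M1_siEHD1 replicate 3 left 1 higher. The formyl peptide receptor gene Fpr2 read 230.0, 181.0 and 190.2 CPM against 130.7, 134.3 and 136.7 CPM (66.8% of control, -0.58, SE 0.07, edgeR adjusted p = 1.7e-05). The NAD-consuming ectoenzyme gene Cd38 read 276.8, 277.9 and 277.8 CPM against 223.3, 223.7 and 206.4 CPM (-0.35, SE 0.05), and the ATP-gated channel gene P2rx4 621.3, 606.8 and 571.7 CPM against 487.0, 483.6 and 506.2 CPM (-0.29, SE 0.05). In all 3 every siEhd1 library was lower. The adenosine receptor gene Adora2b fell from 29.05, 24.98 and 25.16 to 20.78, 20.43 and 20.59 CPM, and the prostaglandin D synthase gene Hpgds rose by 0.37 (SE 0.07). Ptgs2 (COX-2) was not called (44.34, 55.95 and 56.55 CPM against 50.26, 52.38 and 44.91 CPM, -0.09, SE 0.08, edgeR adjusted p = 0.61). Of 32 lysosome, V-ATPase and cathepsin genes 4 rose and 2 fell (median 0.04). The proton pump genes split, with Atp6v0a1 higher by 0.29 (SE 0.06) and Atp6v1d, a carrier, lower (92.73, 90.8 and 94.12 CPM against 70.36, 69.66 and 65.96 CPM, -0.43, SE 0.05). The lysosomal calcium channel gene Mcoln1, also a carrier, was lower by -0.27 (SE 0.05).

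The siEhd1 effect was then set against the same effect in resting cells, by a test of the difference between the states. This test called 6.04% of genes: 379 with a more positive effect after LPS and 356 with a more negative one. Of the 1039 genes called after LPS, 182 also differed from rest, 114 with a difference of the same sign as the change after LPS and 68 with the opposite sign. The mitosis list showed the latter form. Its median was 0.66 after LPS and 1.47 at rest, and 26 of its 40 genes had a smaller effect after LPS by the test, none a larger one. Bub1b rose by 0.58 after LPS and by 1.21 (SE 0.08) at rest, from 15.88 ± 1.06 to 36.75 ± 3.42 CPM (SD, n = 3), a difference of -0.63 (SE 0.12, edgeR adjusted p = 0.0029). Interferon-stimulated genes had a median of -0.59 at rest, and 37 of 46 had a more positive effect after LPS, none a more negative one. Among guanylate-binding protein and immunity-related GTPase genes it was 9 of 15.

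Some effects were seen after LPS and were near 0 or opposite at rest. Tnfsf10 rose after LPS and read 2.621 ± 0.132 and 1.408 ± 0.32 CPM at rest (SD, n = 3 each; -0.89, SE 0.17), a difference of 1.65 (SE 0.21, edgeR adjusted p = 7.5e-05). Mfge8 read 359.4 ± 15.9 and 253.2 ± 7.52 CPM at rest (-0.51), a difference of 0.85 (SE 0.09), and Fcgr4 33.84 ± 2.11 and 25.93 ± 1.3 CPM (-0.38), a difference of 0.75 (SE 0.08). Pdgfc, a growth factor gene, had log2 fold changes of 0.79 (SE 0.11) after LPS and -0.66 (SE 0.11) at rest. Pald1 and Olfml3 stood at 24.93 and 27.57 CPM and at 40.51 and 42.39 CPM at rest, with differences of 0.97 (SE 0.14) and 0.85 (SE 0.10). Trem2 (0.003, SE 0.06) and Timp2 (-0.04, SE 0.06) had effects near 0 at rest and differences of 0.43 (SE 0.09) and 0.49 (SE 0.08). Nfkbie (0.10, SE 0.06 at rest) and Gpr85 (-0.13, SE 0.10) fell after LPS, with differences of -0.43 (SE 0.08) and -0.57 (SE 0.12).

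Other effects had similar values in both states, with no call of the difference: Mmp9 rose by 1.61 and 1.56 (difference 0.05, SE 0.39), Slc40a1 fell by -1.10 and -1.18 (0.09, SE 0.24), Mt1 rose by 1.06 and 1.13 (-0.08, SE 0.20) and Leprot fell by -0.62 and -0.68 (0.06, SE 0.07). For Ehd1 the difference was -0.28 (SE 0.10, edgeR adjusted p = 0.12). The LPS and resting libraries came in separate tables and carry no batch label, so any batch between the tables and LPS itself cannot be told apart in these differences. Several genes had a large LPS response in siControl cells. Since that response shares the siControl libraries with the siEhd1 comparison, values are given side by side without a relation: Il1b 10.25 and -0.47, Lcn2 10.78 and -0.52, Fpr2 10.23 and -0.58, and Cd38 12.07 and -0.35.

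**Figure D5:**
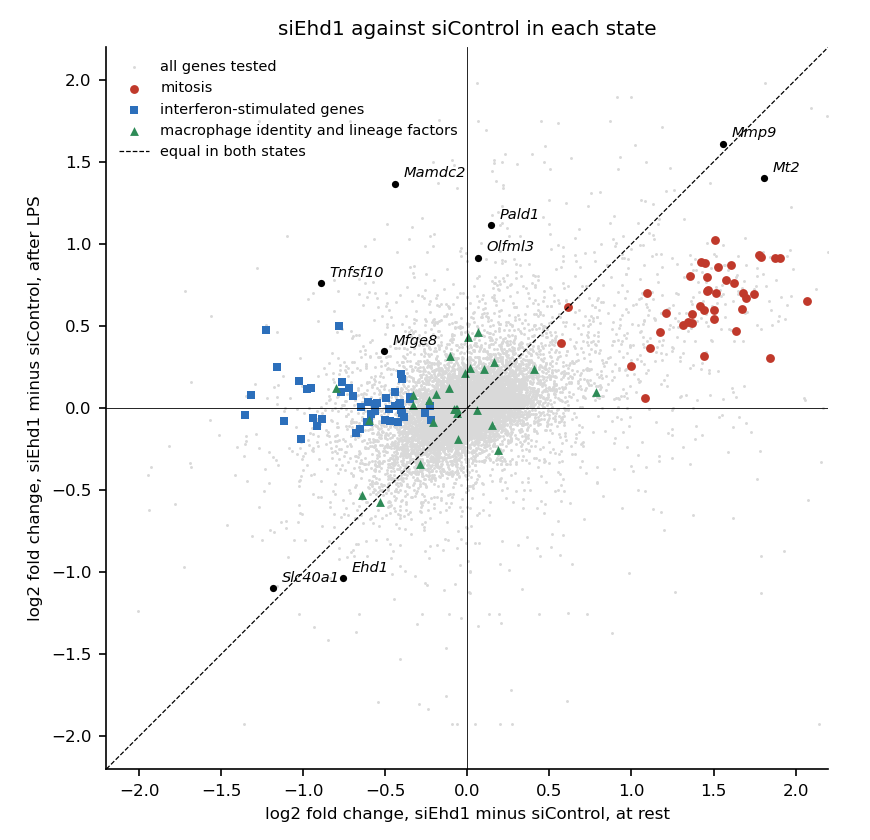
Log2 fold change of siEhd1 against siControl at rest (horizontal axis) and after LPS (vertical axis), grey for all genes tested and colours for 3 lists, with the dashed line marking equal effects; 44 genes lie beyond the axes. Mitosis genes (red) lie to the right of the line (medians 1.47 at rest and 0.66 after LPS), and interferon-stimulated genes (blue) lie left of 0 at rest (median -0.59) and near 0 after LPS (0.01).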

How the data were processed

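Bulk RNA was sequenced from 12 libraries in 4 groups of 3. The authors deposited whole-number counts per gene in separate tables for resting and LPS-treated cells. STAR 2.7.6a, featureCounts 2.20.0, FastQC 0.10.1, Trim Galore 0.6.3, cutadapt and genome build mm10 are listed, per the submitters' processing notes; annotation, strandedness and multimapping rules: not given in the sources used here. Without strand, the counts of 22 of the 163 named genes that share exon bases with another protein-coding gene are uncertain.

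All 12 libraries were fitted with edgeR 4.0.16 in R 4.3.3 (TMM scaling, filterByExpr with a minimum count of 10 and total of 15, quasi-likelihood F test; p-values were adjusted by Benjamini-Hochberg across the tested genes and called at 0.05). The difference between states is the interaction in that fit. The self-test ran the same steps on simulated data. Alternatives used DESeq2 1.42.0, limma-voom (limma 3.58.1), other scaling and filters, the LPS table alone, a replicate block, and each LPS-treated library left out. CPM and log2 fold changes were computed from the counts. 3′ UTRs and gene coordinates came from GENCODE M21 (GRCm38), promoters from RefSeq.

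Named genes were the EHD family and Sort1; the 15 largest changes in each direction with at least 5 CPM and no overlap of libraries; up to 4 called members of each of 43 lists by smallest p; 13 inflammatory and lipid genes whether called or not; the 5 smallest p-values in each direction; and the 5 largest differences between states in each direction. No predicted models, pseudogenes, histone, ribosomal protein or mitochondrial genes were eligible. Members, lists and the GCCTTGT word were chosen with earlier results of these data known.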

Additional observations from a re-analysis of the deposited data

Results flagged for a closer look

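The siEhd1 effect differed between LPS-treated and resting cells, by the edgeR interaction test at an adjusted p under 0.05, in 38 of the named genes. Mamdc2, Pdgfc, Rapgef3, Olfr56, Adora2b, Prr11, Ccnf, Ckap2l and Nek2 were named only for the size of this difference. Their place in the count was therefore set in advance. Of them, Ccnf alone carries the word. Tnfsf10 was named by that rule and also as a list member. Over all genes tested the same test called 6.04%, and the count of named genes is not to be compared with that share. Values are the log2 effect after LPS minus the log2 effect at rest. It was more positive after LPS for Mamdc2 (1.805), Tnfsf10 (1.65), Pdgfc (1.45), Rapgef3 (1.39), Olfr56 (1.36), Irg1 (1.16), Pald1 (0.97), Mfge8 (0.85), Olfml3 (0.85), Oasl2 (0.82), Fcgr4 (0.75), Gbp6 (0.68), E2f2 (0.52), Idh1 (0.52), Ccl4 (0.52), Timp2 (0.49), Trem2 (0.43), Abca1 (0.41), Sort1 (0.41), Cx3cr1 (0.40), Itga6 (0.345) and Tap1 (0.33). It was more negative after LPS for Adora2b (-1.15), Prr11 (-1.14), Ccnf (-1.13), Ckap2l (-1.11), Nek2 (-1.10), Bub1b (-0.63), Pf4 (-0.62), Gpr85 (-0.57), Cars (-0.505), Acsl1 (-0.47), Nfkbie (-0.43), Tnf (-0.41), Atf5 (-0.41), Gsr (-0.38), Clec4a3 (-0.34) and Hif1a (-0.34). Sort1, Tnf and Abca1 are in this set although none was called after LPS itself. The separate tables for the 2 states carry no batch label, so handling and LPS cannot be told apart here.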

How the results depend on the processing

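The main counts were 540 higher and 499 lower genes. Leaving out 1 LPS-treated library at a time gave 304 to 500 higher and 303 to 477 lower, both lowest without M1_siEHD1 replicate 1. Leaving out genes with GCCTTGT gave 259 lower among 10629 genes tested. That run could not call the 230 lower carriers, so its smaller count was set in advance. The share of lower genes with GCCTTGT, 48.6%, was 42.4% for 3′ UTRs of 200 to 3000 bases and 14.4% for GCCTTGTA. Among genes not called the same shares were 12.3%, 9.51% and 2.11%, so the background fell as well. With DESeq2 the counts were 622 higher and 445 lower. With the replicate number as a block (replicate block), 390 were higher, 360 lower and 519 differed between states, against 735 without it. Same-numbered libraries had correlations of deviations of -0.045, 0.185 and 0.086 and 3 of 6 libraries correlated best with their own number, so the numbers were not taken to pair the samples. Of 152 called named genes, 109 were called under every alternative run that tested them. Carriers of the word were not tested in the run that left them out. Of 2236 values of named genes under alternatives 2026 stayed on their side of the threshold, 208 lost the call and 2 gained it. No called gene changed sign; Cxcl1, not called, went from -0.086 to 0.027 without M1_siEHD1 replicate 3. Depth limits genes of a few counts, such as Il12b, which were not tested.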
